A study of Mus musculus with 12 samples.

Results

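The 10 genes described here encode interferon-inducible GTPases, enzymes that cells make in quantity when an interferon reaches them. They are 3 guanylate-binding protein genes (Gbp2, Gbp3 and Gbp7) and 7 immunity-related GTPase (IRG) genes (Irgm1, Irgm2, Igtp, Iigp1, Ifi47, Tgtp1 and Tgtp2), taken by symbol from the 52636 genes of each deposited table. They were chosen by name with earlier results of these data known, among them the change with siKlf4, so their values, and whether they passed the threshold used for all genes, are a description and no test of them. The data are bulk RNA-seq of cultured mouse cells, 12 libraries in 4 groups of 3. Airway smooth muscle cells (SMCs) are purchased C57BL/6 cells labelled as a cell line (CellBiologics C57-6082), named tracheal in the source field and lung airway in the titles. The study's methods call them primary cells. Lung PDGFR-β+ cells are from 12-weeks-old C57BL/6 mice, and the study's methods describe them as Zs+ cells sorted from tamoxifen-induced Pdgfrb-CreERT2, ROSA26R(Zs/+) animals, a reporter that the strain label does not name. In each cell type, 1 group received scrambled RNA (Scr, genotype label WT) and the other an siRNA against Klf4 (siKlf4, genotype label Klf4 KD). The knockdown is transient and acts on the cultured cells alone, so no group is a knockout. None of the cells had met a pathogen as far as the labels say. Each siKlf4 group differs from its Scr group both in Klf4 and in the siRNA it received. Loss of Klf4 and a response of the cells to that siRNA itself therefore cannot be told apart in any siKlf4 value given here.

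Values are TPM (transcripts per 1000000), a unit that corrects for the length of a gene and gives all libraries an equal total, so levels of different genes can be set side by side. Each library had from 20590 to 21780 genes above 0. TPM keeps no record of depth, so depth is unknown here and precision comes from the spread of 3 libraries. SMC values are listed in the order of the library whose column carries no replicate number, replicate 2 and replicate 3, and PDGFR-β+ values as replicates 1, 2 and 3. The labels do not say whether the replicates were separate cultures, while the study's methods speak of 3 independent RNA-seq experiments. Whether these differed in cultures or in animals is not given, so p-values measure the spread between these libraries. Klf4, the targeted gene, lay at 89.6, 96.3 and 95.03 TPM in Scr SMCs and at 26.5, 16.3 and 18.8 TPM with siKlf4. In PDGFR-β+ cells it lay at 144, 146 and 134 TPM with Scr against 12.2, 13.8 and 12.8 TPM with siKlf4, so in both cell types each siKlf4 library was below each Scr library. Acta2, the smooth muscle actin gene, was between 1031 and 1567 TPM in Scr SMCs and between 3969 and 4594 TPM in Scr PDGFR-β+ cells, and Pdgfrb was present in both (213 to 216 TPM and 423 to 474 TPM), so neither gene is restricted to the cell type it is a marker for.

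IRG and guanylate-binding proteins defend the inside of a cell. Both are GTPases that gather on the membrane of a vacuole holding a parasite or bacterium, where their assembly can break the vacuole open and expose its contents to autophagy and to inflammasome sensors. Irgm1, Irgm2 and Igtp form a regulatory class that sits on the cell's own membranes and holds the effector class in its inactive form, to which Iigp1, Ifi47, Tgtp1 and Tgtp2 belong. Transcription of these genes is low at rest. It is raised by type II interferon through gamma-activated sites (GAS), and by type I interferon through ISGF3, a complex that includes STAT2 and IRF9, on interferon-stimulated response elements (ISRE).

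The genes lie in clusters. Gbp7 (chr3:142530342-142550149), Gbp3 (chr3:142560026-142573209) and Gbp2 (chr3:142620602-142638008) are neighbours on the plus strand within 107667 bases of chromosome 3, in GENCODE release M21 of GRCm38. On chromosome 11, Irgm1 (chr11:48861968-48871683, minus strand), Tgtp1 (chr11:48985327-48994172, minus), Tgtp2 (chr11:49057194-49064206, minus) and Ifi47 (chr11:49076587-49096974, plus) lie within 235007 bases, and Igtp (chr11:58199556-58207591, plus) and Irgm2 (chr11:58199618-58222782, plus) lie within 23227 bases farther along. The models of Igtp and Irgm2 overlap on the same strand by 7974 bases. Tgtp1 and Tgtp2 are close copies: 70.3% of the 100-base windows of Tgtp1 transcripts also occur in Tgtp2, and 76.8% of those of Tgtp2 occur in Tgtp1, so how the authors' counting divided their reads is uncertain. The next largest share is 5.16%, of Igtp windows in Irgm2. Ifi47 lies inside the model of Olfr56 on the same strand. How reads were divided between Ifi47 and Olfr56, and between Igtp and Irgm2, is uncertain as well.

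RefSeq promoter windows of 300 bases, from 250 bases before the start site to 50 after it (GRCm38.p6), were found for 9 of the 10 genes, Iigp1 not among them. The stretches around the ISRE core are printed here because this short element is what most of the genes have in common. Capitals mark the ISRE core (GAAANNGAAA, or TTTCNNTTTC on the other strand) and, where it lies in the stretch, the GAS (TTCNNNGAA, the same on both strands). All are 5′ to 3′ on the strand of the gene.
Gbp2: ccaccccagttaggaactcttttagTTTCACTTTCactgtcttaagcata
Gbp3: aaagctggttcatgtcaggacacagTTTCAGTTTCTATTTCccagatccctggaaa
Gbp7: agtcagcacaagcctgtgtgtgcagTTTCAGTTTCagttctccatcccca
Irgm1: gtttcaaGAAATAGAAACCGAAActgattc
Irgm2: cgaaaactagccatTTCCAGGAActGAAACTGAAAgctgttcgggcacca
Igtp: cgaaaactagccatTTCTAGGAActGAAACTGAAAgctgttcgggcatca
Tgtp1: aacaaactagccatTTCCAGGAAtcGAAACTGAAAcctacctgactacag
Tgtp2: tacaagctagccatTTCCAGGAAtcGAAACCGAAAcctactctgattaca

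These stretches lie at chr3:142620579-142620628 (Gbp2, plus), chr3:142559974-142560029 (Gbp3, plus), chr3:142530258-142530307 (Gbp7, plus), chr11:48871428-48871457 (Irgm1, minus), chr11:58214888-58214937 (Irgm2, plus), chr11:58199497-58199546 (Igtp, plus), chr11:48992299-48992348 (Tgtp1, minus) and chr11:49064258-49064307 (Tgtp2, minus). RefSeq and M21 place some starts differently, and 27 bases of the Gbp2 stretch, 4 of the Gbp3 stretch and 30 of the Irgm1 stretch fall in exons of the M21 models. The ISRE core was in a window of 8 of the 9 genes, Ifi47 being without it. Gbp3 has a second RefSeq window, without a match to any element searched here, so the 9 genes have 10 windows. The ISRE core was thus in 8 of 10 windows, against 1131 of all 32851 promoters (3.44%). In the 3 GBP genes it read TTTC, on the opposite strand, and in the 5 IRG genes that held it GAAA. Gbp3 and Irgm1 each held a pair of overlapping matches. The GAS was in 5 of the 9 genes (Gbp7, Irgm2, Igtp, Tgtp1 and Tgtp2) and in 8.3% of all promoters, and both elements were in those 5 genes and in 0.454% of all promoters. In Irgm2, Igtp, Tgtp1 and Tgtp2 the GAS ended 2 bases before the ISRE core. Over all 300 bases the windows of Igtp and Irgm2 were 81.3% identical and those of Tgtp1 and Tgtp2 73.0%, so these 4 genes are no independent cases of the arrangement. The CACCC box, a short element that KLF factors can bind, was in 3 of the 9 genes (Gbp2, Irgm1 and Tgtp2) and in 57.5% of all promoters. A match is a stretch of letters in the reference, and binding was not measured here.

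**Figure D1:**
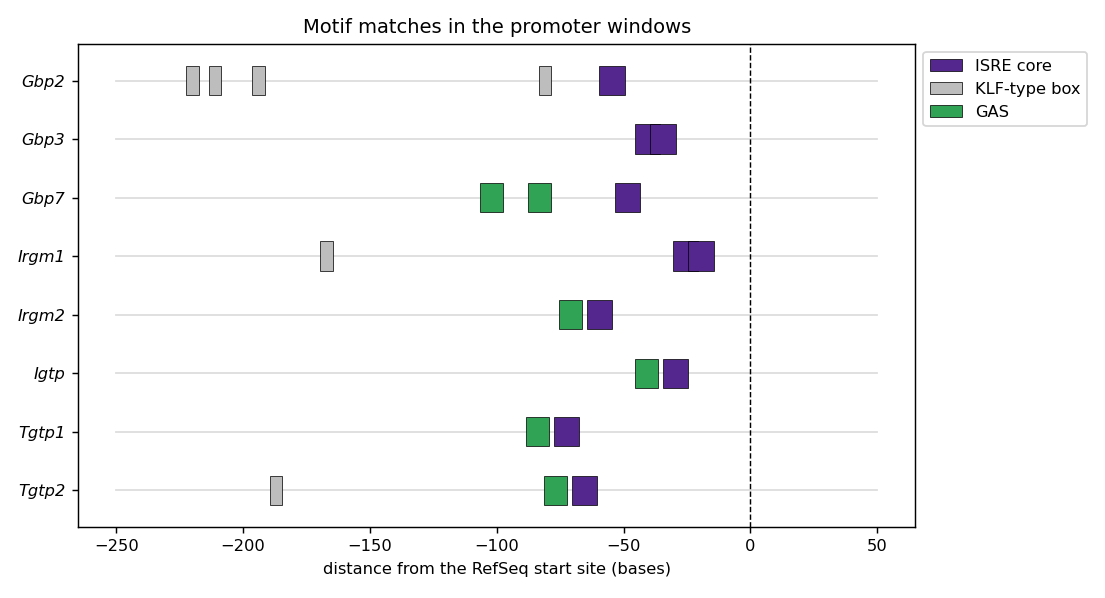
Matches to the ISRE core (purple), the GAS (green) and a KLF-type box (grey) in the promoter windows of the 8 genes with any match, by distance from the RefSeq start site in bases (dashed line at 0). The ISRE core matches sit between 77 and 15 bases before the start site, and in Irgm2, Igtp, Tgtp1 and Tgtp2 the GAS stands directly before the ISRE core.

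With Scr, each of the 10 genes had its higher level in the SMCs, and with siKlf4 that order turned over. All 10 had an SMC range above the PDGFR-β+ range with Scr. With siKlf4 the mean of all 10 was higher in PDGFR-β+ cells and the ranges were apart for 8, the exceptions being Gbp7 and Tgtp1. The tables of the cell types were made separately, so these levels are set side by side without a test. The share of all genes with ranges apart between the cell types was not counted. Nothing is therefore read from these counts beyond a description of the 10 genes. Added together, the 10 genes reached 325 ± 16.1 TPM (SD, n = 3) in Scr SMCs and 722 ± 34.8 TPM in siKlf4 SMCs, a ratio of 2.22. In PDGFR-β+ cells they reached 134 ± 38.5 TPM with Scr and 1617 ± 64.3 TPM with siKlf4, a ratio of 12.1.

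**Figure D2:**
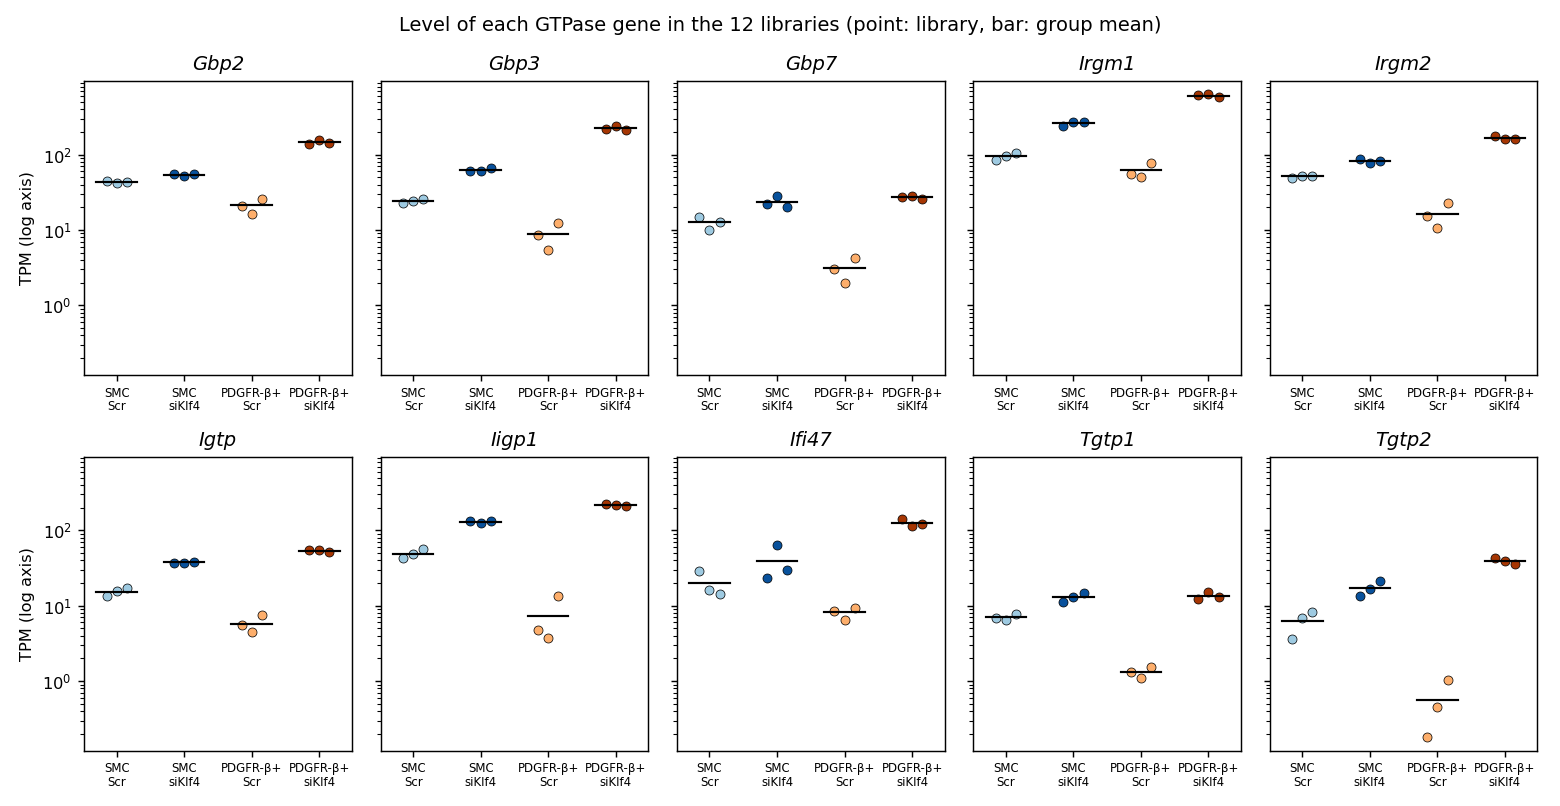
TPM of each gene (log axis) in the 12 libraries, with 1 panel per gene, points for libraries and a bar for the mean of each group of 3. In every panel the Scr PDGFR-β+ points lie lowest and the siKlf4 PDGFR-β+ mean highest, and Ifi47 is the gene whose SMC groups overlap.

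The regulatory IRG genes were the most abundant as a class. Irgm1, whose product keeps effector GTPases off the cell's own membranes, was measured at 85.4, 94.8 and 106 TPM in Scr SMCs and at 239, 274 and 271 TPM in siKlf4 SMCs. In PDGFR-β+ cells it was at 56.0, 51.2 and 77.9 TPM with Scr against 611, 630 and 574 TPM with siKlf4. Irgm1 was thus the highest of the 10 genes in all 4 groups, and its siKlf4 libraries stood above its Scr libraries in both cell types. On the scale of log2(TPM + 1), used for all fold changes here, the difference between siKlf4 and Scr was 1.45 (SE 0.098) in SMCs and 3.29 (SE 0.15) in PDGFR-β+ cells. In bulk RNA a change in the number of responding cells and a change in RNA per cell cannot be told apart, and this holds for every value given here.

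Irgm2 was at 49.4, 52.7 and 52.0 TPM in Scr SMCs and at 87.0, 77.9 and 83.2 TPM with siKlf4, the second smallest change of the 10 in this cell type (log2 fold change 0.68, SE 0.071). In PDGFR-β+ cells it went from 15.1, 10.5 and 23.1 TPM to 177, 163 and 160 TPM (3.34, SE 0.24). Igtp, the third regulator, was at 13.4, 15.7 and 17.1 TPM in Scr SMCs and at 37.3, 37.2 and 37.9 TPM with siKlf4 (1.24, SE 0.10). Its PDGFR-β+ values were 5.54, 4.43 and 7.44 TPM with Scr against 54.7, 54.1 and 51.8 TPM with siKlf4 (3.03, SE 0.15). For both genes the groups were apart in both cell types, and the siKlf4 libraries of Igtp were the closest together of the 10 genes, with a coefficient of variation of 0.999% among the SMC libraries and 2.91% among those of PDGFR-β+ cells.

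Among the effectors, Iigp1 stood out in PDGFR-β+ cells. It lies apart from the other members, on the plus strand of chromosome 18 (chr18:60376027-60392634), and its product loads onto the vacuole of the parasite Toxoplasma. Its level was 43.0, 48.6 and 56.2 TPM in Scr SMCs and 134, 127 and 131 TPM with siKlf4 (log2 fold change 1.40, SE 0.10). In PDGFR-β+ cells it was 4.73, 3.77 and 13.6 TPM with Scr against 222, 220 and 209 TPM with siKlf4, the largest change of the 10 on the scale of log2(TPM + 1) (4.89, SE 0.37). By the ratio of mean TPM it stood at 29.5, below Tgtp2 at 71.3, since the pseudocount holds back low genes. Replicate 3 of the Scr group was well above the other two, and the SE is the widest of the 10 genes in these cells.

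Tgtp2 and Tgtp1 encode effectors of the same subgroup, which load onto such vacuoles early. Tgtp2 was at 3.66, 6.86 and 8.15 TPM in Scr SMCs and at 13.6, 16.8 and 21.3 TPM with siKlf4 (1.37, SE 0.27). In PDGFR-β+ cells it was nearly absent with Scr, at 0.18, 0.45 and 1.03 TPM, and at 43.1, 39.3 and 36.0 TPM with siKlf4 (4.74, SE 0.20). It passed the minimum mean of 1 TPM in these cells through its siKlf4 libraries alone, so it could only be tested there because it differed. Tgtp1 was at 6.95, 6.46 and 7.73 TPM in Scr SMCs and at 11.3, 13.2 and 14.6 TPM with siKlf4 (0.80, SE 0.12). Its PDGFR-β+ values were 1.32, 1.08 and 1.52 TPM with Scr against 12.2, 15.1 and 13.0 TPM with siKlf4. This was the smallest change of the 10 there on the scale of log2(TPM + 1) (2.64, SE 0.13). By the ratio of mean TPM Tgtp1 stood at 10.3, and Gbp2 was the smallest at 6.91. Because the copies share most of their sequence, the sum of both depends less on how reads were divided between them. The sum gave 1.13 (SE 0.18) in SMCs and 4.25 (SE 0.15) in PDGFR-β+ cells. How reads were divided between Tgtp1 and the overlapping Gm12185 stays uncertain in the sum as well.

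Ifi47, an effector IRG of its own subgroup, was the gene whose SMC groups overlapped. It was at 29.2, 16.2 and 14.2 TPM in Scr SMCs, with the library of no replicate number the highest, and at 23.1, 63.6 and 29.5 TPM with siKlf4, with that library the lowest. The log2 fold change was 0.86 with an SE of 0.40, and it did not pass the threshold of 0.05 on the adjusted p from limma. In the 4 numbered SMC libraries alone it was 1.46 (SE 0.37), past the threshold. In PDGFR-β+ cells Ifi47 was at 8.51, 6.51 and 9.44 TPM with Scr against 139, 115 and 120 TPM with siKlf4 (3.79, SE 0.14), with the groups far apart.

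The GBP genes spanned the smallest and some of the largest changes. Gbp2, an interferon-gamma-responsive protein that coats vacuoles and the bacteria freed from them, was at 44.4, 41.4 and 42.9 TPM in Scr SMCs and at 54.6, 52.8 and 54.8 TPM with siKlf4. This was the smallest log2 fold change of the 10 in SMCs (0.33, SE 0.065), although the groups did not overlap, and with both cell types in a single fit it no longer passed the threshold. In PDGFR-β+ cells Gbp2 was at 20.96, 16.5 and 26.0 TPM with Scr against 139, 158 and 142 TPM with siKlf4 (2.75, SE 0.15).

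Gbp3 lies between Gbp7 and Gbp2 in the cluster and moved more than either. It was at 23.1, 24.6 and 26.1 TPM in Scr SMCs and at 61.1, 61.1 and 66.6 TPM with siKlf4 (1.32, SE 0.079). In PDGFR-β+ cells it went from 8.54, 5.49 and 12.3 TPM to 220, 240 and 212 TPM (4.58, SE 0.23), and so from below Gbp2 and Irgm2 to a level second to Irgm1 alone, where it and Iigp1 overlapped. Gbp7, a family member linked to oxidase assembly at vacuoles, was at 15.02, 10.1 and 12.6 TPM in Scr SMCs and at 22.3, 28.5 and 20.1 TPM with siKlf4 (0.86, SE 0.17). Its PDGFR-β+ values were 3.02, 2.00 and 4.27 TPM with Scr against 27.6, 27.9 and 25.9 TPM with siKlf4 (2.82, SE 0.19).

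Read together, 9 of the 10 genes passed the threshold as higher with siKlf4 in SMCs, where 15.6% of the 13709 genes tested did. In PDGFR-β+ cells 10 of 10 passed, where 25.3% of 13694 did. Every siKlf4 library was above every Scr library for 9 genes in SMCs (25.6% of all genes) and for 10 in PDGFR-β+ cells (33.9% of all genes). Median-ratio scaling moved the median log2 fold change of all genes in PDGFR-β+ cells by -0.101 and the calls over all genes from 3461 higher and 2098 lower to 2634 higher and 2979 lower (2789 and 2825 with quantile normalization), and the 10 genes stayed called higher under each. Since the genes were selected on these contrasts, nothing is read from the counts beyond the description. Their median log2 fold change was 1.05 in SMCs, where that of all genes was 0.017, and 3.32 in PDGFR-β+ cells, where that of all genes was 0.097. As ratios of mean TPM, siKlf4 over Scr ran from 1.26 (Gbp2) to 2.77 (Tgtp2) in SMCs and from 6.91 (Gbp2) to 71.3 (Tgtp2) in PDGFR-β+ cells, so which gene leads depends on the scale in both. In order of log2 fold change the 10 genes held places between 10 and 77 of the 13694 in PDGFR-β+ cells and between 74 and 2460 of the 13709 in SMCs.

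**Figure D3:**
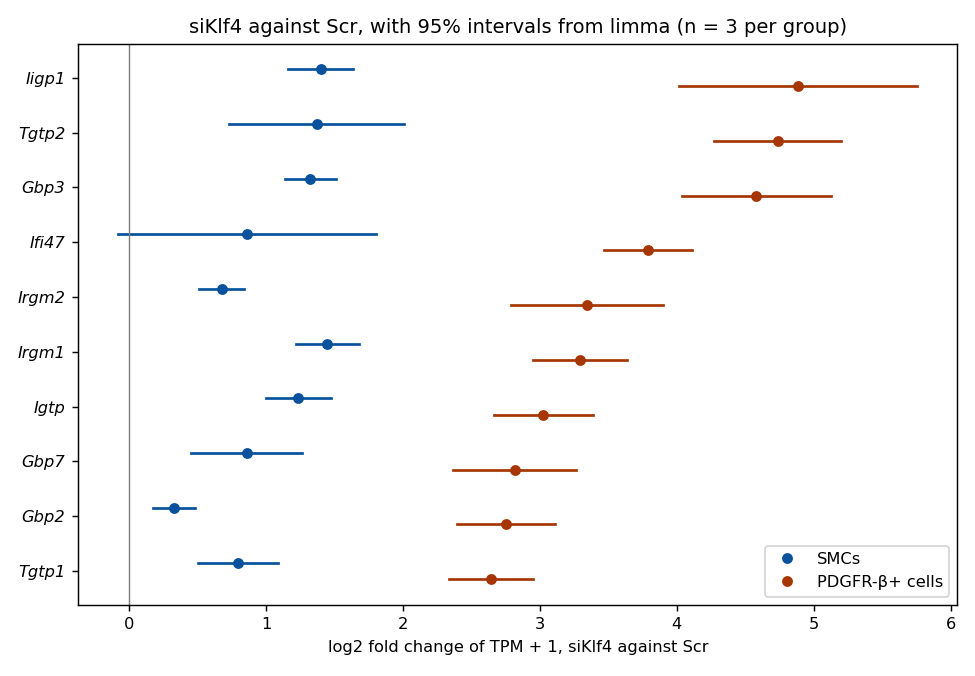
Log2 fold change of TPM + 1 for siKlf4 against Scr, with 95% intervals from limma, for the 10 genes in SMCs (blue) and PDGFR-β+ cells (orange), 3 libraries per group. The SMC values lie between 0.33 and 1.45 and the PDGFR-β+ values between 2.64 and 4.89, and the interval of Ifi47 in SMCs is the only one that includes 0.

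The difference of the siKlf4 effect between the cell types was below 0 (smaller in SMCs) for each of the 10 genes in the interaction term across all 12 libraries, where 18.5% of 13032 genes passed in that direction. Its median over the 10 genes was -2.55, against -0.078 over all genes. The calls over all genes were 1886 above 0 and 2411 below, and 2510 and 1908 with median-ratio scaling, under which the 10 genes stayed below 0. Iigp1 (-3.49, SE 0.43) and Tgtp2 (-3.37, SE 0.37) differed most, and Igtp (-1.79, SE 0.19) least. Klf4 itself fell by less in SMCs (-2.16, SE 0.16) than in PDGFR-β+ cells (-3.35, SE 0.077). Its interaction was 1.19 (SE 0.19, limma adjusted p = 0.00069). The part of this unequal knockdown in the differences of the 10 genes was not tested. The order of the genes by fold change was not the same in the cell types: on the log2(TPM + 1) scale Irgm1 led in SMCs and stood below 5 others in PDGFR-β+ cells, while Ifi47 ranked above Irgm1 and Irgm2 in PDGFR-β+ cells and did not pass in SMCs.

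The make-up of the summed signal shifted as well. Irgm1 supplied 29.3% ± 1.90 (SD, n = 3) of the summed TPM in Scr SMCs and 36.2% ± 1.09 with siKlf4, whereas in PDGFR-β+ cells its share was 46.5% ± 3.29 with Scr and 37.4% ± 0.435 with siKlf4. Gbp2 had the smaller share with siKlf4 in both, at 13.2% against 7.5% in SMCs and 15.9% against 9.04% in PDGFR-β+ cells. Iigp1 and Gbp3 had the larger share with siKlf4 in PDGFR-β+ cells, at 13.4% against 5.07% and at 13.9% against 6.42%. The shares of a library add up to the whole, so they are not independent of each other, and they were not tested.

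**Figure D4:**
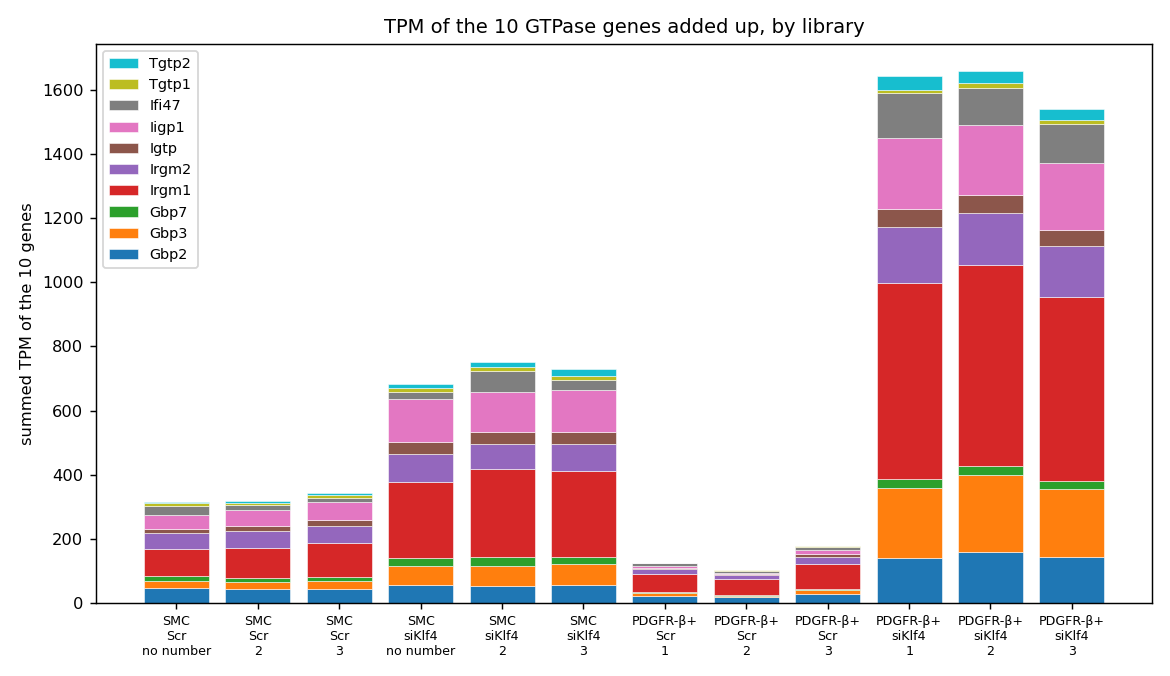
Summed TPM of the 10 genes in each of the 12 libraries, each bar divided by gene and starting at 0. The siKlf4 PDGFR-β+ bars reach 1617 TPM on average against 134 TPM with Scr, Irgm1 (red) is the thickest band of every bar, and Scr PDGFR-β+ replicate 3 is the highest bar of its group.

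Within groups the levels can be ordered, with Irgm1 apart from the next gene in all 4. In Scr SMCs it was followed by Irgm2 (51.4 TPM), Iigp1 (49.3) and Gbp2 (42.9), neighbours whose ranges overlapped, and the lowest were Tgtp1 (7.05) and Tgtp2 (6.22), which also overlapped. In siKlf4 SMCs the order was Irgm1, Iigp1, Irgm2 and Gbp3, each apart from the next. In Scr PDGFR-β+ cells Gbp2 (21.1), Irgm2 (16.3), Gbp3 (8.79), Ifi47 (8.15), Iigp1 (7.36) and Igtp (5.80) overlapped from one to the next. With siKlf4 the order was Irgm1 (605), Gbp3 (224), Iigp1 (217), Irgm2 (166) and Gbp2 (146), with overlap only between Gbp3 and Iigp1 among these. Iigp1 thus moved up past Gbp2, Irgm2 and Ifi47.

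The Scr PDGFR-β+ libraries were the most spread out. The median coefficient of variation of the 10 genes was 31.4% there, against 5.92% with siKlf4 in the same cells and 11.5% and 6.45% in Scr and siKlf4 SMCs. Replicate 3 was the highest of its Scr group for 10 of the 10 genes and replicate 2 the lowest for 9. Without replicate 3 the 10 genes still passed the threshold as higher with siKlf4. In Scr SMCs, the library with no replicate number was the lowest for 6 genes and the highest for 3.

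Other GTPase genes of the same families were counted from lists written with earlier results in view. The counts of rising genes given from here on stand against 25.3% of all genes in PDGFR-β+ cells and 15.6% in SMCs, and a gene that passed the minimum through its siKlf4 libraries alone could only be counted as rising. Of 8 other GBP genes, 4 could be tested in PDGFR-β+ cells and all 4 rose, and of the 3 tested in SMCs 1 rose (Gbp9). Under the alternatives, some of which change how many genes are tested, between 1 and 5 of the 8 rose in PDGFR-β+ cells. Between 0 and 2 rose in SMCs. In PDGFR-β+ cells Gbp9 had the largest change on the log2(TPM + 1) scale (3.01, SE 0.19, limma adjusted p = 3.7e-05) but, by the ratio of mean TPM, stood at 10.9 against 63.8 for Gbp5 and 50.6 for Gbp4. Gbp5, linked to inflammasome assembly, was at 7.52, 7.05 and 6.78 TPM with siKlf4 and under 0.23 TPM in each Scr library. Gbp4, Gbp5 and Gbp6 passed the minimum there through their siKlf4 libraries alone. Gbp2b was listed at 0 in all 12 libraries.

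Of 9 other IRG genes, 4 of the 7 tested rose in PDGFR-β+ cells and 4 of the 7 tested in SMCs. Gm4951 was at 0.70, 0.73 and 2.52 TPM with Scr against 90.1, 83.7 and 80.4 TPM with siKlf4 in PDGFR-β+ cells (5.30, SE 0.27, limma adjusted p = 1.5e-05), on that scale a larger change than any of the 10 genes, and in SMCs at 15.8, 14.8 and 15.4 TPM against 30.8, 24.4 and 28.0 TPM (0.81, SE 0.10, limma adjusted p = 0.0027). Gm12250 gave 4.53 (SE 0.20) and F830016B08Rik 3.58 (SE 0.23) in PDGFR-β+ cells. These 2 and Gm4841 passed the minimum there through their siKlf4 libraries alone. Under the alternatives between 4 and 5 of the 9 rose and at most 1 fell in PDGFR-β+ cells, and between 3 and 5 rose in SMCs. Irgq was at 31.3, 30.3 and 26.4 TPM with Scr against 28.0, 24.8 and 25.2 TPM with siKlf4 in PDGFR-β+ cells (-0.17, SE 0.094, limma adjusted p = 0.19). In SMCs it was among the 4 that rose, from a mean of 28.4 to 35.9 TPM (0.33, SE 0.079, limma adjusted p = 0.021), with an interaction of 0.50 (SE 0.12, limma adjusted p = 0.008). In PDGFR-β+ cells 9930111J21Rik1 was at 15.3, 14.2 and 14.0 TPM with Scr against 15.2, 14.6 and 14.3 TPM with siKlf4 (0.02, SE 0.082, limma adjusted p = 0.87).

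The Mx and very large GTPases, interferon-induced in the same way, rose for 4 of 4 tested in PDGFR-β+ cells and for 2 of 3 in SMCs. Mx1 passed the minimum in PDGFR-β+ cells through its siKlf4 libraries alone. Mx2, an antiviral dynamin-like GTPase, was at 0.41, 0.92 and 2.39 TPM with Scr against 44.4, 49.2 and 48.2 TPM with siKlf4 in PDGFR-β+ cells (4.53, SE 0.29, limma adjusted p = 3.8e-05) and gave 1.10 (SE 0.19, limma adjusted p = 0.0067) in SMCs.

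**Figure D5:**
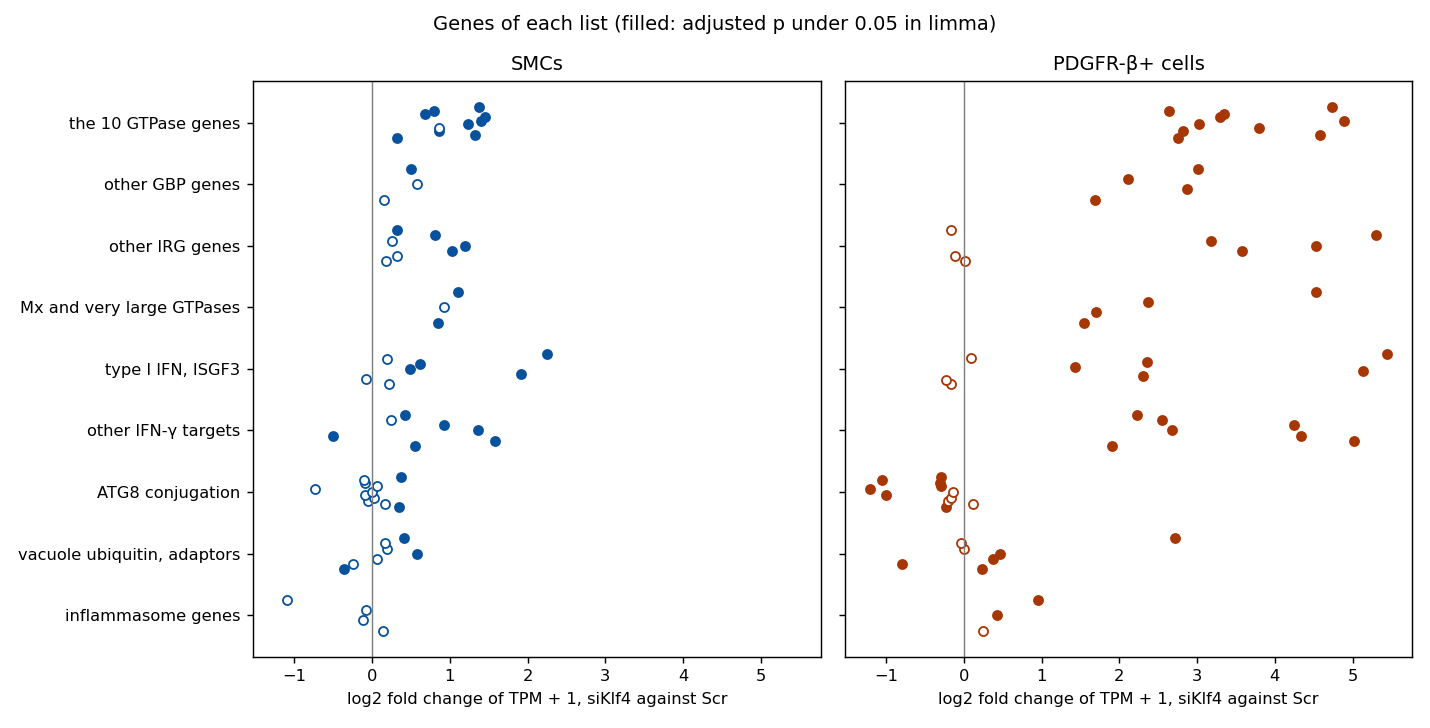
Log2 fold change of TPM + 1 for siKlf4 against Scr of every tested gene in 9 lists, in SMCs (left, blue) and PDGFR-β+ cells (right, orange), with filled points for an adjusted p under 0.05 in limma. Interferon-induced GTPases, ISGF3 genes and IFN-γ targets reach up to 5.44 (Usp18) in PDGFR-β+ cells and 2.26 in SMCs. The genes listed for ATG8 conjugation, Ubqln1 among them, stay between -1.20 and 0.37.

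Interferon genes were the upstream signals looked for first. Ifng, the type II interferon gene, was listed at 0 in all 12 libraries. Ifnb1, a type I interferon gene that many cell types can express, was listed at 0 in the 9 other libraries and at 5.19, 3.71 and 3.16 TPM in the siKlf4 PDGFR-β+ libraries, where Ifna4 was also above 0 (1.09, 0.53 and 0.90 TPM). In siKlf4 SMCs Ifnb1 and Ifna4 were listed at 0. No interferon gene besides Ifng, Ifnb1 and Ifna4 was read here, so these zeros do not speak for the others. TPM gives no limit for a value of 0, since the depth is unknown.

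Of the receptor genes, 1 passed the threshold within a cell type. Ifngr1 differed by -0.06 (SE 0.068) in SMCs and 0.07 (SE 0.062) in PDGFR-β+ cells, past the threshold in neither, and its sign turned with median-ratio scaling in PDGFR-β+ cells and in the numbered SMC libraries. Ifngr2 rose in SMCs (0.50, SE 0.087, limma adjusted p = 0.0074) and fell in PDGFR-β+ cells (-0.27, SE 0.062, limma adjusted p = 0.012), and the interaction term for it passed (0.77, SE 0.10, limma adjusted p = 0.00023). Ifnar1 gave 0.22 (SE 0.07, limma adjusted p = 0.054) in SMCs and -0.16 (SE 0.068, limma adjusted p = 0.092) in PDGFR-β+ cells, past the threshold in neither, while its interaction term passed (0.38, SE 0.089, limma adjusted p = 0.0068). Ifnar2 passed in neither cell type.

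Among the signalling factors, Stat2 rose by 2.35 (SE 0.11) and Irf9 by 1.43 (SE 0.16) in PDGFR-β+ cells, and by 0.61 (SE 0.12) and 0.49 (SE 0.065) in SMCs, the SMC call of Stat2 being lost with a replicate block on the numbered libraries. Irf7, the factor of the late type I response, and Usp18, its feedback inhibitor, had the largest log2 fold changes of the type I list, at 5.13 (SE 0.21) and 5.44 (SE 0.27) in PDGFR-β+ cells and 1.92 (SE 0.43) and 2.26 (SE 0.22) in SMCs. Irf1, the factor through which IFN-γ drives many GBP genes, separated the cell types. It was at 22.7, 19.3 and 20.7 TPM with Scr against 64.5, 61.4 and 32.5 TPM with siKlf4 in PDGFR-β+ cells (1.24, SE 0.24, limma adjusted p = 0.0059), and at 32.6, 33.0 and 30.3 TPM against 17.6, 33.2 and 27.3 TPM in SMCs (-0.33, SE 0.21, limma adjusted p = 0.27), with an interaction of -1.57 (SE 0.35, limma adjusted p = 0.0056). Of the type I receptor and ISGF3 list, 5 of 8 rose in PDGFR-β+ cells and 4 of 7 in SMCs, Ifnb1 having passed the minimum in PDGFR-β+ cells through its siKlf4 libraries alone.

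Of 12 other IFN-γ targets, 7 of 7 tested rose in PDGFR-β+ cells, and 5 of 7 rose and 1 fell in SMCs. Cxcl9 and Psmb9 in PDGFR-β+ cells and Cxcl10 in SMCs passed the minimum through their siKlf4 libraries alone. The chemokine gene Cxcl10 was at 2.28, 3.14 and 4.76 TPM with Scr against 143, 128 and 144 TPM with siKlf4 in PDGFR-β+ cells (5.02, SE 0.19). Cxcl9 was under 0.12 TPM in each Scr library there and at 19.1, 20.7 and 21.2 TPM with siKlf4, and Psmb8, an immunoproteasome subunit gene, gave 4.25 (SE 0.13). The gene that fell in SMCs was Irf8 (-0.51, SE 0.15, limma adjusted p = 0.048), where 12.9% of all genes fell, and its adjusted p ran from 0.015 to 0.18 under the alternatives, which ended the call under most of them.

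Genes whose products help to place these GTPases at a vacuole were read in the same way. Of 11 genes listed for ATG8 conjugation, the lipid-tagging system that the GTPases need to gather there, none rose and 7 fell in PDGFR-β+ cells. Of all genes, 15.3% fell there by limma, and the median log2 fold change of the 11 was -0.29. Ubqln1, which encodes a ubiquitin-binding protein outside that lipid-tagging system, was counted among the 11 and among the 7 that fell. Gabarapl1 (-1.20, SE 0.27), Map1lc3b (-1.05, SE 0.22) and Atg7 (-1.002, SE 0.19) were lowest, and between 5 and 10 of the 11 fell under the alternatives. In SMCs 2 rose (Atg12 and Ubqln1) and none fell. Of 7 genes of ubiquitin and adaptor proteins of the vacuole, 4 rose (Trim21, Rabgef1, Lgals8 and Calcoco1) and 1 fell (Lgals3) in PDGFR-β+ cells, and in SMCs 2 rose (Trim21 and Rabgef1) and 1 fell (Calcoco1). Trim21, an antibody receptor and ubiquitin ligase, rose in PDGFR-β+ cells from 6.51, 5.05 and 9.53 TPM to 52.7, 49.0 and 50.04 TPM (2.72, SE 0.19, limma adjusted p = 5.5e-05), and Lgals3, the galectin-3 gene, fell (-0.79, SE 0.10, limma adjusted p = 0.00091). Of the inflammasome genes, Il18 (0.96, SE 0.15) and Gsdmd (0.43, SE 0.079) rose in PDGFR-β+ cells among 3 tested and none of 4 passed in SMCs, and Il1b was listed at 0 in all 12 libraries.

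Genes of other cell types were read beside these changes. Of 8 macrophage markers, the summed level was between 35.4 and 37.0 TPM in Scr and between 29.0 and 33.8 TPM in siKlf4 PDGFR-β+ libraries, and between 45.5 and 49.5 TPM and between 24.8 and 29.6 TPM in Scr and siKlf4 SMCs, with Cd14, Lyz2 and Cd68 making up most of it. Its members did not move one way: in PDGFR-β+ cells Cd14 rose (mean 6.88 to 10.5 TPM, 0.55, SE 0.09, limma adjusted p = 0.0027), Lyz2 (-0.71, SE 0.14) and Csf1r (-0.87, SE 0.21) fell and Cd68 did not pass (7.56 to 8.77 TPM), and in SMCs Cd14 fell (-0.87, SE 0.099). Lyz2 had means of 19.0 and 11.3 TPM with Scr and siKlf4 in PDGFR-β+ cells, and Csf1r 2.28 and 0.78 TPM. The other macrophage markers of the list were at or near 0. Fcgr1 was listed at 0 throughout, Adgre1 and C1qa at no more than 0.105 TPM and Ptprc at no more than 0.266 TPM in any library. The 6 T and NK cell markers were listed at 0 in all PDGFR-β+ libraries and summed to at most 0.0728 TPM in SMCs. Of 7 epithelial markers the sum was at most 1.10 TPM. Of 6 endothelial markers it was between 15.3 and 18.5 TPM in Scr and 14.1 and 16.2 TPM in siKlf4 PDGFR-β+ libraries, most of it Kdr, and between 1.62 and 4.08 TPM in Scr and 3.87 and 4.42 TPM in siKlf4 SMCs. Kdr rose in SMCs from a mean of 0.66 to 2.88 TPM (1.22, SE 0.15, limma adjusted p = 0.0023), tested only through its siKlf4 libraries, and Tek rose in PDGFR-β+ cells from 1.33 to 2.55 TPM (0.60, SE 0.16, limma adjusted p = 0.021), while Pecam1, Cdh5, Emcn and Vwf had group means under 1 TPM. The part of these markers in the GTPase changes was not tested.

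Among 13022 other genes, those whose pattern over the 12 libraries was most like the mean of the 10 were Rsad2 (Pearson r = 0.9986), Parp14 (0.9985), Sp100 (0.9976), Ifih1 (0.9975) and Trim30a (0.9964), with log2(TPM + 1) centred within each cell type. The libraries share the contrast that chose the genes, so these values of r describe likeness alone. Rsad2, the viperin gene, had a mean of 1.30 TPM with Scr and 62.9 TPM with siKlf4 in PDGFR-β+ cells, and 1.01 TPM and 4.87 TPM in SMCs. Ifih1, which encodes the RNA sensor MDA5, had means of 7.62 and 92.8 TPM in PDGFR-β+ cells and 17.2 and 37.1 TPM in SMCs, so in contrast to Rsad2 it shared with the 10 genes the higher Scr level in SMCs.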

How the data were processed

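The authors trimmed the reads of strand-specific poly-A libraries and mapped them with HISAT2 to the mm10 build (GENCODE release not given in the sources used here). They deposited TPM values from StringTie and ballgown, with a separate file for each cell type and replicates not pooled. Their DESeq2 test used counts, which were not used here. The submitters' processing notes name mm10, HISAT2, StringTie and DESeq2. Among the SMC columns, 1 of Scr and 1 of siKlf4 have no replicate number and entered their groups without one. Since TPM has a fixed total, a rise of abundant genes takes from the values of the rest.

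Values were analysed as log2(TPM + 1), which understates the change of low genes, where the 6 libraries of a cell type averaged 1 TPM or more, with limma 3.58.1 in R 4.3.3 (lmFit, eBayes with a trend, two-sided, Benjamini-Hochberg over all genes tested, threshold 0.05). Each cell type was fitted alone, and the difference was the interaction term over 12 libraries, for genes that reached this level in both. The procedure was tested on simulated data. The members and gene lists were chosen with earlier results of these data known. Genes were named by rule: the 10 members, Klf4, Stat2, Irf1, Irf9, Ifng, Ifngr1, Ifngr2 and Ifnb1, up to 4 called genes per list by size of change, and the 5 genes nearest in pattern. A further gene under this rule, and the count of the list that holds it, are not reported here. Gbp2b, Irgq, 9930111J21Rik1, Ifna4, Ifnar1, Ifnar2, Irf8, Psmb9, Calcoco1, Cd68, Pecam1, Cdh5, Emcn, Vwf, Atg12, Ubqln1 and Il1b were named after their values were seen. Adgre1, C1qa, Ptprc and Fcgr1 were named outside this rule as well. Lists not counted above held smooth muscle markers (5 of 6 rose in SMCs, 2 rose and 3 fell in PDGFR-β+ cells) and PDGFR-β+ mesenchyme markers (2 of 7 fell in SMCs, 3 of 7 in PDGFR-β+ cells). Alternatives were a pseudocount of 0.1, no filter or one at 5 TPM, quantile normalization, median-ratio scaling, no trend, a joint fit (separate fits for the difference), a replicate block (also one, added after seeing the data, with the unnumbered SMC libraries as a pair), a term for unnumbered SMC libraries, numbered SMC libraries alone, leaving out each library, and Tgtp1 and Tgtp2 summed. Positions come from GENCODE M21, where 9 of the 10 identifiers had the same version as in the tables. Motifs were searched by exact match on both strands of RefSeq promoters. Protein sequences were not used here. Python 3.11.15 and matplotlib 3.10.9 were used for tables and figures.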

Additional observations from a re-analysis of the deposited data

Results flagged for a closer look

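For each of the 10 genes the interaction term over 12 libraries, the difference of the siKlf4 effect between the cell types, passed the threshold used for all genes. The values are the log2 fold change in SMCs minus that in PDGFR-β+ cells. They describe genes chosen with this contrast in view, under a Klf4 knockdown that was weaker in SMCs. They were -2.43 for Gbp2, -3.26 for Gbp3 and -1.96 for Gbp7, all GBP genes of the chromosome 3 cluster. Among the regulatory IRG genes they were -1.85 for Irgm1, -2.67 for Irgm2 and -1.79 for Igtp. Among the effectors they were -3.49 for Iigp1, -2.93 for Ifi47, -1.85 for Tgtp1 and -3.37 for Tgtp2, with -3.12 for the sum of Tgtp1 and Tgtp2. No group has 4 or more libraries, so no single library was tested for standing apart.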

How the results depend on the processing

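In PDGFR-β+ cells the 10 genes kept direction and call, though not their order by size, under each alternative tried (141 values), and so did the difference between the cell types (231 values). In SMCs 167 of 171 values did. The call of Gbp2 was lost with both cell types in 1 fit (0.33), that of Gbp7 with a replicate block on the numbered libraries (1.02), and Ifi47 passed with that block and in the numbered libraries alone (1.46 in both). The cause was not tested. Outside the 10 genes, Stat2 in SMCs lost its call with that block (0.47), and Ifngr1, which passed in no setting, changed sign to 0.002 in SMCs (replicate block, and numbered libraries alone) and to -0.045 in PDGFR-β+ cells (median-ratio scaling). Leaving out each library in turn gave between 2216 and 3563 genes called in SMCs, against 3910 with all 6 libraries, the lowest without siKlf4 replicate 2, then 2342 without siKlf4 replicate 3 and 2539 without Scr replicate 2. These counts come from fewer libraries, and 9 of the 10 genes were called in each (8 with both cell types in 1 fit, 10 in the numbered libraries alone). In PDGFR-β+ cells the deviations of same-numbered libraries correlated at 0.073, -0.016 and 0.0043, and those of unlike numbers between -0.0983 and 0.0831. No pairing by number was thus visible there, though such values cannot show that same-numbered libraries shared no experiment. Only 2 numbered pairs exist in SMCs (0.185 and 0.199). The unnumbered SMC libraries correlated at 0.361, and SMC libraries of unlike names between -0.217 and 0.0499. Deviations from a group mean cancel within the group, so positive values for like names bring lower ones for unlike names. Pairing, which the labels do not give, and a difference of the unnumbered libraries from the numbered ones cannot be told apart here. A replicate block with the unnumbered libraries as a further pair, chosen after seeing the data, called 4872 genes in SMCs and left each call of the 10 genes and of Stat2 as without a block. The replicate block called 3486 genes higher and 2155 lower in PDGFR-β+ cells and changed no call of the 10 there. Depth sets no stated limit, since TPM keeps none.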

Other observations

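Socs1, an inhibitor of JAK kinases, rose in PDGFR-β+ cells from 3.33, 3.72 and 2.24 TPM to 10.8, 10.7 and 8.002 TPM (log2 fold change 1.41, SE 0.18, limma adjusted p = 9e-04) and gave -0.08 (SE 0.27) in SMCs, with an interaction of -1.49 (SE 0.35). Ptpn2, a phosphatase that acts on JAK kinases, gave 0.51 (SE 0.086) in PDGFR-β+ cells and -0.16 (SE 0.10) in SMCs, with an interaction of -0.67 (SE 0.13). Il18, a cytokine gene of the inflammasome pathway, was at 3.83, 4.45 and 5.21 TPM with Scr against 9.50, 8.21 and 11.3 TPM with siKlf4 in PDGFR-β+ cells, and at 8.61, 4.83 and 3.71 TPM with Scr against 3.56, 0.92 and 2.14 TPM with siKlf4 in SMCs, with an interaction of -2.04 (SE 0.43). The interaction of these 3 genes passed the threshold of 0.05 in limma. They were named after their values were seen.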
